A study of Rattus norvegicus with 36 samples.

Results

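The solute carrier (Slc) genes of the rat liver were taken as the array probes named Slc followed by a digit that gave a detection p-value under 0.01 on at least 4 of 36 arrays, leaving out the probes of Slc10a1, Slc27a5, Slc25a20, Slc2a2 and Slc40a1. This left 142 of the 22523 probes on the array, which stand for 141 genes of 37 Slc families. The array carried 268 Slc probes in all, of which 147 met the detection threshold, 22 were detected on 1 to 3 arrays and 99 on none. The genes were thus chosen by their measured detection p-values, and the levels that put a gene on the list are a description. Of the 142 probes, 71 were detected on all 36 arrays and 22 on fewer than 9, and 7 genes were detected in ligated livers alone (Slc1a5, Slc16a6, Slc25a24, Slc27a4, Slc35b2, Slc35e4 and Slc43a2). These 7 entered only through the groups in which they were high, so their differences are descriptions, and the counts of calls over all Slc genes are also given without them where any was called. The 9 genes just inside the threshold, on exactly 4 arrays, included Slc7a5, Slc2a3 and Slc22a6 and had log2 levels between 4.36 and 6.26, while the 3 Slc probes just outside it, on 3 arrays (Slc17a6, Slc29a2 and Slc3a1), lay between 4.42 and 6.10. Carriers that the array file lists under another kind of name are not among the 141. Nherf1, Nherf2 and Slc4a1ap, which carry Slc names in the file, are scaffold and adaptor proteins, not carriers.

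Solute carriers are membrane proteins that move nutrients, ions, metals and metabolites across the plasma membrane and the membranes of organelles. Hepatocytes use them at the sinusoidal face to take up bile salts, organic ions, sugars and amino acids from blood, and in mitochondria to exchange nucleotides, phosphate and acids with the cytosol. Families are numbered by sequence likeness, and members of 1 family can serve different substrates and different cell types. When bile flow is blocked, hepatocytes are known to change uptake and export carriers, while bile ducts, fibroblasts and macrophages expand and bring carriers of their own.

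The study asked what vitamin A deficiency does to a liver with obstructed bile flow. Male Wistar rats were made vitamin A deficient (VAD) or kept sufficient (VAS), then had the bile duct ligated (BDL) or were sham-operated (sham), and were given vitamin A as daily intraperitoneal retinyl palmitate (VITA) or vehicle. The 8 groups were VAD BDL VITA, VAD BDL vehicle, VAD sham VITA, VAD sham vehicle, VAS BDL VITA, VAS BDL vehicle, VAS sham VITA and VAS sham vehicle. Each ligated group had 5 rats, each sham group 4, and every rat gave 1 whole-liver array. The labels used here give no doses, ages or interval between ligation and sampling. Between 29.2% and 38.1% of the probes of an array were detected, and the precision of a value is limited by the number of arrays behind it. Levels are log2 normalised intensities, and they are compared between groups for the same gene, not between genes. A gene is called higher or lower where the two-sided p from limma is under 0.05 after adjustment over the 9314 genes tested, and the standard error (SE) of a log2 difference is given beside it.

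All 8 hepatocyte markers tested were detected, with a summed linear level of 106397 to 130884 in VAD BDL vehicle livers and 120862 to 133324 in VAS BDL vehicle livers, and 0 of the 8 were called between these groups. The median log2 difference of these 8 markers (VAD minus VAS BDL vehicle) was -0.37. Markers of other cells differed unevenly between these groups. Of 3 endothelial markers 1 was called higher, and of 6 T and NK cell markers 2 were higher and 2 lower. The 1 neutrophil marker tested was called higher, and 0 of 4 erythroid and 0 of 1 B cell markers were called. Of 9 macrophage markers tested, 7 were called higher in VAD BDL vehicle than in VAS BDL vehicle livers, with summed levels of 27030 to 44400 against 11963 to 16053. Of 8 stellate cell and fibroblast markers, 7 were called higher, with summed levels of 15583 to 26621 in VAD BDL vehicle livers and 3306 to 4316 in VAS BDL vehicle livers, and Rgs5 was detected on no array. All 8 cholangiocyte markers tested were called higher, with summed levels of 8512 to 11542 in VAD BDL vehicle livers and 3042 to 4229 in VAS BDL vehicle livers, while Sox9 and Cftr were among those detected on no array. After VITA in VAD BDL rats, 6 macrophage, 7 stellate cell and 4 cholangiocyte markers were called lower. The part of these cells in the carrier results was not tested, and in whole liver fewer cells of a type cannot be told apart from less RNA per cell.

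Across the 8 groups, the families differed most in VAD BDL vehicle livers. Over the 18 families with at least 3 genes, the median difference from VAS sham vehicle in that group ran from -1.56 on the log2 scale in family Slc17 (phosphate and organic anion carriers, 4 genes) to 2.01 in family Slc1 (glutamate and neutral amino acid carriers, 4 genes), against -0.28 over all 141 genes. The Slc1 genes had 2.89 (Slc1a3), 2.48 (Slc1a2), 1.54 (Slc1a5) and -0.23 (Slc1a6), and the median without Slc1a5, which was detected in ligated livers alone, was 2.48. Slc1a3 and Slc1a5 were below background in all VAS sham vehicle rats. Family Slc7, subunits of the heteromeric amino acid exchangers and cationic amino acid carriers, followed Slc1 with a median of 1.16. Its 4 genes were unlike. Ligation in VAD vehicle livers gave 1.96 for Slc7a6, 1.27 for Slc7a7, 0.27 for Slc7a5 (not called) and -0.69 for Slc7a2. Slc7a6 was below background in all VAD and VAS sham vehicle rats, so its 1.96 is a fitted value and not an exact size. The 3 genes of family Slc43 had medians of -0.87 in VAD BDL vehicle livers and -0.84 in VAS BDL vehicle livers. In VAD BDL vehicle livers the 18 genes of family Slc25 (mostly mitochondrial carriers) had a median of -0.28. The 15 genes of family Slc35 (nucleotide sugar and related carriers) had a median of -0.06 there. In the 3 other sham groups, under either injection, the medians of Slc1 and Slc17 stayed between -0.10 and 0.44.

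**Figure D1:**
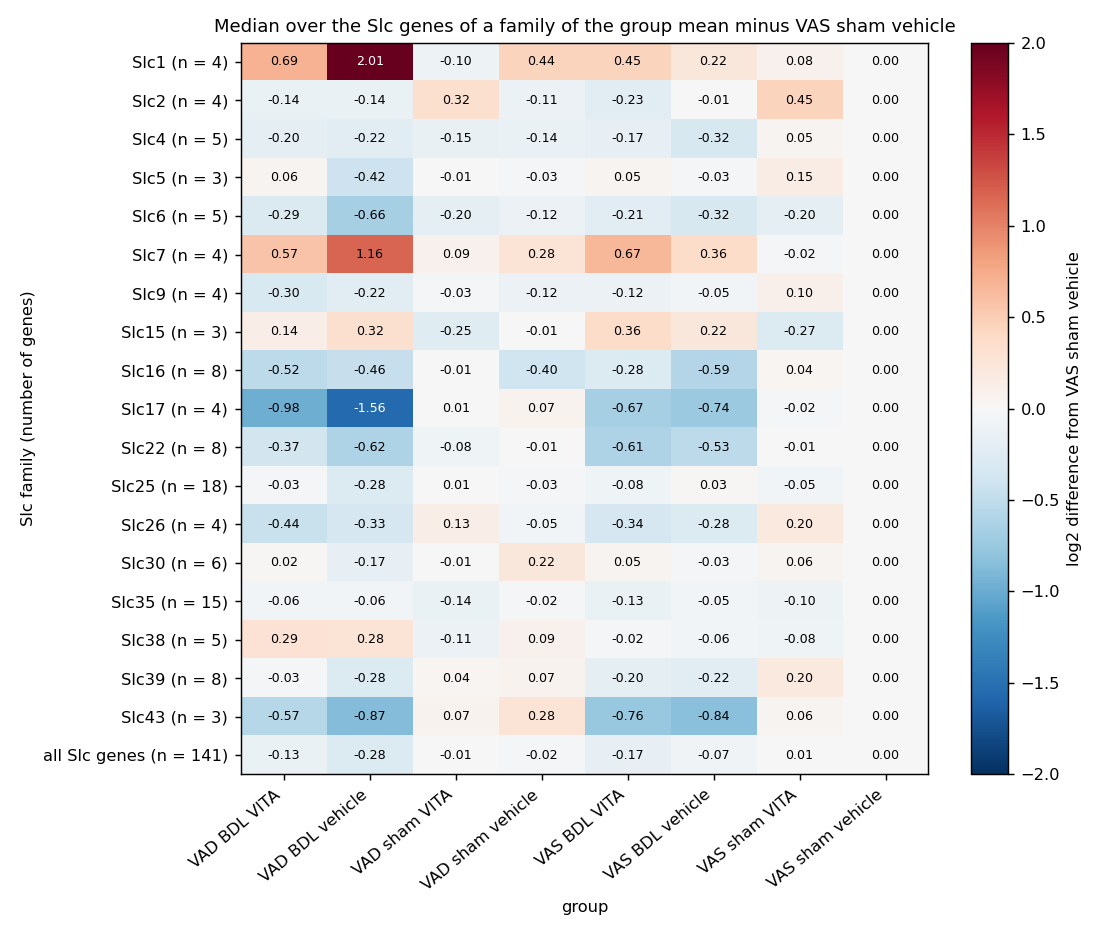
Median over the genes of each Slc family with at least 3 genes of the group mean minus the VAS sham vehicle mean (log2, colour and printed value), by family (rows, number of genes in brackets) and group (columns). Family Slc1 is highest (2.01) and Slc17 lowest (-1.56) in VAD BDL vehicle livers.

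The comparison of deficient with sufficient rats after ligation, both on vehicle, called 41 of the 141 Slc genes (29.1%), 16 higher and 25 lower, where 26.4% of all genes tested were called. Without the 7 genes detected in ligated livers alone, 13 were higher and 25 lower. Higher calls were 11.3% of the Slc genes and 14.3% of all genes, and lower calls 17.7% and 12.1%. Scaling each array by its median in place of quantile normalisation gave 17 higher and 17 lower. The direction of all 41 was the same within each of the 3 slides. The 41 were called from these same arrays, with few rats of a group on a slide, so this agreement is partly built in.

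Slc16a3, the lactate exporter MCT4, showed the largest difference. Its log2 level was 9.95, 8.96, 8.29, 9.15 and 9.12 in the VAD BDL vehicle rats, against 6.51, 5.40, 5.66, 5.94 and 5.29 in the VAS BDL vehicle rats. The groups did not overlap, and the difference was 3.33 (SE 0.33, adjusted p = 1.8e-09), or 10.1-fold, with 3 of the 5 VAS BDL vehicle rats above background. The authors' deposited value table gave 1.46 for the same difference and a background correction with a larger offset gave 2.45, both called. The VAD and VAS sham vehicle rats lay between 4.81 and 5.78. Slc16a1, the broad monocarboxylate carrier MCT1, was also called higher by 0.69 (SE 0.21, adjusted p = 0.015), a call lost under median scaling and without slide 3. The other 6 members of the family were not called. Of the glycoproteins that escort these carriers to the membrane, Emb was higher by 2.00 (adjusted p = 4.7e-07) and Bsg differed by 0.22 (adjusted p = 0.37).

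Slc25a4, which encodes the muscle-type mitochondrial ADP/ATP carrier Ant1, came second. The VAD BDL vehicle rats had log2 levels of 11.88, 11.32, 11.47, 11.46 and 11.85, against 9.38, 8.83, 8.31, 9.02 and 9.39 in the VAS BDL vehicle rats. Every VAD BDL vehicle rat exceeded every rat of the 7 other groups, and the difference was 2.61 (SE 0.23, adjusted p = 3.5e-10), or 6.10-fold. Its paralogue Slc25a5, which encodes the ADP/ATP carrier Ant2, differed by 0.0064 (SE 0.11, adjusted p = 0.98). Among the 18 genes of family Slc25, 2 were called higher and 4 lower. The second higher one was Slc25a24, a calcium-regulated ATP-Mg/phosphate carrier, which was on the list only through ligated livers: it was above background in 4 VAD and 0 VAS BDL vehicle rats. The lower ones were led by Slc25a10, the dicarboxylate carrier (-1.04, SE 0.18, adjusted p = 3.5e-05), and included Slc25a1, the citrate carrier (-0.60, SE 0.23, adjusted p = 0.046), whose call was lost without a detection filter and on leaving out any of 8 rats.

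Of 24 amino acid carriers, 7 were called higher and 5 lower. The acidic and neutral amino acid carriers of family Slc1 led the higher ones. Slc1a3, the glutamate carrier GLAST, had levels of 8.27, 8.32, 7.05, 6.75 and 6.99 in VAD BDL vehicle rats, against 5.20, 4.93, 4.66, 5.53 and 5.66 in VAS BDL vehicle rats (difference 2.28, SE 0.25, adjusted p = 1.0e-08). Slc1a2, the glutamate carrier GLT-1, had 8.95, 8.94, 7.52, 7.75 and 8.13 in VAD BDL vehicle rats and 6.80, 6.45, 5.87, 5.46 and 6.27 in VAS BDL vehicle rats (difference 2.09, SE 0.33, adjusted p = 8.3e-06). Neither pair of groups overlapped. Slc1a5, the glutamine carrier ASCT2, was on the list only through ligated livers, with levels of 6.17 to 6.57 in the VAD BDL vehicle rats and 4.44 to 5.17, all below background, in the VAS BDL vehicle rats. Slc1a6, the fourth member, was not called.

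The exchanger subunits Slc7a6 and Slc7a7, the light chains of the y+L system for cationic and neutral amino acids, were higher by 1.47 (SE 0.21, adjusted p = 2.3e-06) and 1.34 (SE 0.18, adjusted p = 5.5e-07). Slc7a7 had levels of 8.33 to 8.79 in VAD BDL vehicle rats and 6.98 to 7.54 in VAS BDL vehicle rats. Their shared heavy chain gene Slc3a2 differed by -0.15 (SE 0.26, adjusted p = 0.72). Slc7a5, the LAT1 light chain, was above background in 2 VAD and 0 VAS BDL vehicle rats and was not called (adjusted p = 0.42). Slc6a6, the taurine carrier, was higher by 1.01 (SE 0.26, adjusted p = 0.0028). It was above background in 5 VAD and 1 VAS BDL vehicle rats. The lower genes included carriers known from the hepatocyte. Slc6a13, the GABA and taurine carrier GAT2, had levels of 7.43, 8.25, 7.86, 8.16 and 8.66 in VAD BDL vehicle rats, against 9.39, 10.27, 9.66, 9.57 and 9.56 in VAS BDL vehicle rats (difference -1.62, SE 0.24, adjusted p = 4.1e-06). The sodium-coupled neutral amino acid carriers Slc38a4 (-0.71, SE 0.12, adjusted p = 2.4e-05) and Slc38a3 (-0.62, SE 0.19, adjusted p = 0.013) were lower too. The ubiquitous family member Slc38a2 differed by 0.31 (SE 0.28, adjusted p = 0.47). Slc7a2, the cationic amino acid carrier CAT2, was lower by 0.52 on the log2 scale (adjusted p = 0.011), and median scaling lost that call. Of 13 amino acid response genes tested, 3 were called higher and 1 lower. Nupr1 was higher by 0.87 (adjusted p = 0.0011) and Cth lower (-1.16, adjusted p = 0.0033), while Atf4, the main factor of this response, differed by 0.15 (adjusted p = 0.66) and its target Asns by 0.25 (adjusted p = 0.35).

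**Figure D2:**
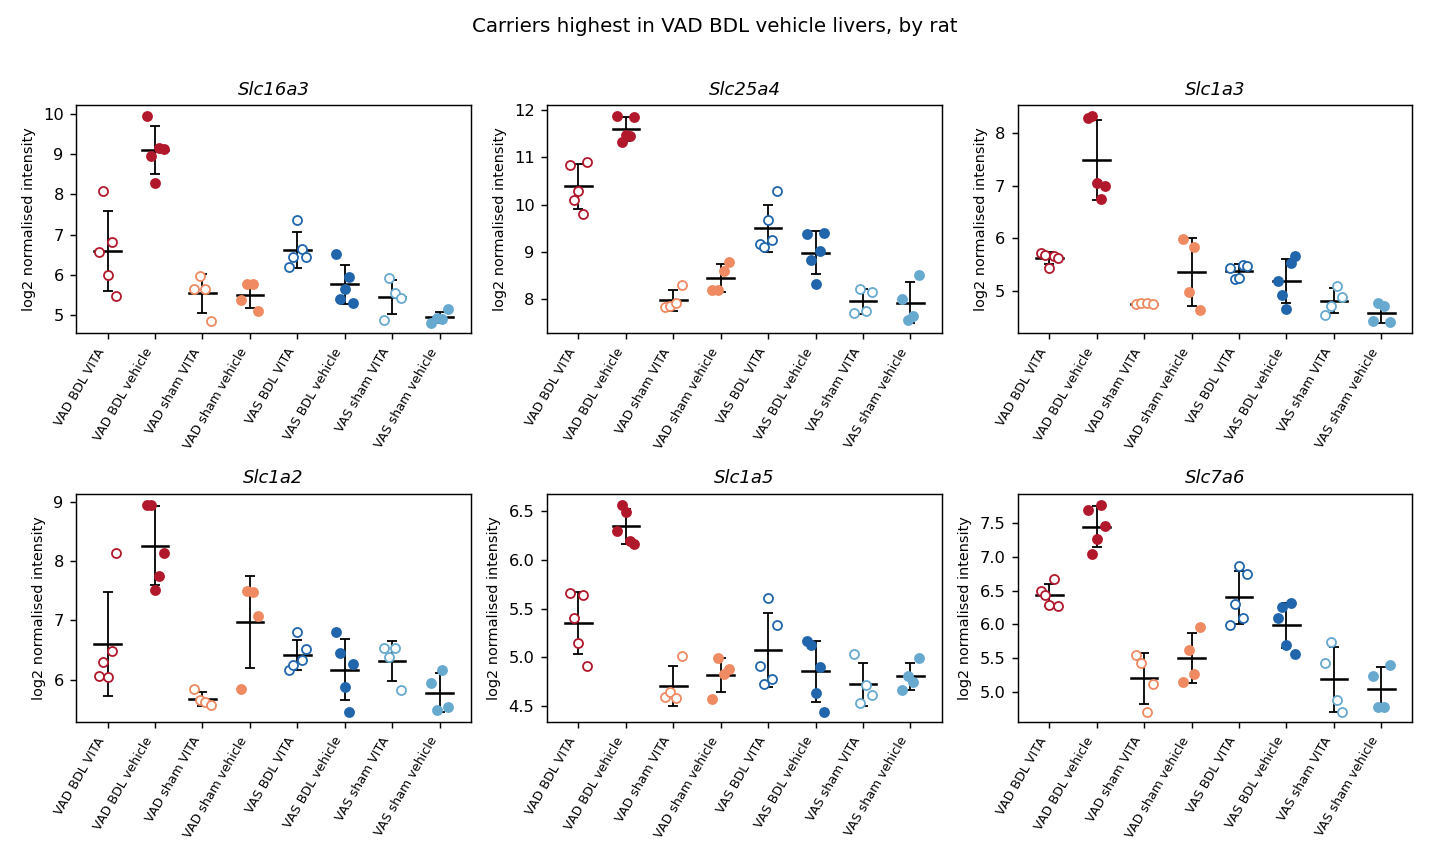
Log2 normalised intensity of 6 carriers in each rat of the 8 groups (points, open for VITA and filled for vehicle), with the group mean (line) and SD (bars). The 5 VAD BDL vehicle rats had 8.29 to 9.95 for Slc16a3 and 11.32 to 11.88 for Slc25a4, above all rats of the other groups.

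The phosphate and vesicular anion carriers were the class with the lowest median, -1.05 over 7 genes against -0.04 over all genes tested, with 1 called higher and 4 lower. The renal-type phosphate and urate carriers Slc17a1, Slc17a3 and Slc17a2 follow each other on chromosome 17 of the RefSeq annotation. Slc17a1 had levels of 6.55, 7.33, 7.73, 8.39 and 7.45 in VAD BDL vehicle rats, against 8.63, 9.12, 9.20, 9.43 and 8.87 in VAS BDL vehicle rats (difference -1.56, SE 0.26, adjusted p = 2.4e-05). For Slc17a3 the VAD BDL vehicle rats had 7.92, 8.75, 9.19, 9.03 and 9.69, against 10.03, 10.33, 10.35, 10.70 and 10.71 in the VAS BDL vehicle rats (difference -1.51, SE 0.26, adjusted p = 2.4e-05). Slc17a2 was lower as well (-1.05, SE 0.16, adjusted p = 3.3e-06). In all 3 genes the groups did not overlap. Slc17a5, the lysosomal sialic acid exporter, differed by -0.09 (SE 0.19, adjusted p = 0.78).

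The sodium phosphate symporters Slc20a1 (Pit1) and Slc20a2 (Pit2) were called in opposite directions. Slc20a1 had 9.95, 10.78, 9.67, 9.83 and 10.39 in VAD BDL vehicle rats, against 8.98, 9.53, 8.73, 9.44 and 8.41 in VAS BDL vehicle rats (difference 1.10, SE 0.28, adjusted p = 0.0024). Slc20a2 had 8.62, 9.17, 8.68, 9.16 and 8.89 in VAD BDL vehicle rats, against 10.21, 10.35, 10.50, 10.29 and 10.32 in VAS BDL vehicle rats (difference -1.43, SE 0.17, adjusted p = 5.4e-08). Each pair of groups was separate. The nucleoside carriers showed the same split: Slc29a3, found in lysosomes and mitochondria, was higher by 1.10 (SE 0.14, adjusted p = 2.3e-07), and the plasma membrane carrier Slc29a1 was lower (-0.57, SE 0.18, adjusted p = 0.019), a call lost under median scaling and without slide 3.

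Other lower carriers included ones for vitamins, sulfate, metals and sugar phosphates. Slc23a1, the ascorbate carrier, had levels of 7.21 to 8.29 in VAD BDL vehicle rats and 8.13 to 9.54 in VAS BDL vehicle rats (difference -1.25, SE 0.21, adjusted p = 2.0e-05), with overlap of the groups at their edges. Slc5a6, the sodium-coupled biotin and pantothenate carrier, was lower in every VAD than in any VAS BDL vehicle rat (-0.96, SE 0.17, adjusted p = 3.1e-05), as was Slc26a1, the sulfate anion exchanger (-1.05, SE 0.20, adjusted p = 1.0e-04). Slc37a4, the glucose 6-phosphate carrier of the endoplasmic reticulum (-0.66, SE 0.18, adjusted p = 0.0050), and Slc31a1, the copper importer (-0.63, SE 0.18, adjusted p = 0.0070), were also lower. Slc39a14, a zinc and iron importer, was called lower (-0.83, SE 0.31, adjusted p = 0.045), but 5 other settings lost the call. Among 12 genes tested on a list of partner proteins, organic anion transporting polypeptides and related carriers, 3 were called higher and 3 lower. The lower ones were Slco1b2 (-1.5, adjusted p = 7.6e-05), Slco2a1 (-1.34, adjusted p = 2.5e-07) and Slco2b1 (-0.70, adjusted p = 0.0015), which take organic anions or prostaglandins into cells. The higher ones included Emb and Ucp2. Ucp2, a mitochondrial carrier with another kind of name, was higher by 1.78 (adjusted p = 3.2e-08).

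Promoter windows of 300 bases, 250 before and 50 after the gene start, were available from RefSeq (build GRCr8) for 106 of the 141 genes. They were searched on both strands for AGGTCA, the hexamer bound by retinoic acid and related nuclear receptors, and for ACGTG, the core of E boxes and hypoxia response elements. AGGTCA occurred in 12 of the 106 windows (11.3%), in 3 of the 30 windows of genes called between VAD and VAS BDL vehicle livers (10%), and in 15.7% of 27457 promoters. ACGTG occurred in 29 of the 106 windows (27.4%), in 10 of those 30 (33.3%) and in 19.7% of all promoters. A match describes letters only. The windows of Slc7a7 and Slc6a6 are shown as called genes that hold AGGTCA, and those of Slc17a1 and Slc17a3 as neighbours that were low together; capitals mark AGGTCA or ACGTG on either strand. Slc7a7 lies at chr15:31835634-31835933 on the minus strand, Slc6a6 at chr4:125752252-125752551 on the plus strand, Slc17a1 at chr17:41681125-41681424 and Slc17a3 at chr17:41723060-41723359, both on the minus strand, and each sequence is read along its gene.
Slc7a7: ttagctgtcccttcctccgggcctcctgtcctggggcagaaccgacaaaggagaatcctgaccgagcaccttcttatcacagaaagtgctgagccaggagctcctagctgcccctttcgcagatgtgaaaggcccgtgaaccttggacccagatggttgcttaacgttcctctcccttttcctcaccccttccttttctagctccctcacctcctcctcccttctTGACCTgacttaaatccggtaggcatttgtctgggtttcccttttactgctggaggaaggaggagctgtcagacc
Slc6a6: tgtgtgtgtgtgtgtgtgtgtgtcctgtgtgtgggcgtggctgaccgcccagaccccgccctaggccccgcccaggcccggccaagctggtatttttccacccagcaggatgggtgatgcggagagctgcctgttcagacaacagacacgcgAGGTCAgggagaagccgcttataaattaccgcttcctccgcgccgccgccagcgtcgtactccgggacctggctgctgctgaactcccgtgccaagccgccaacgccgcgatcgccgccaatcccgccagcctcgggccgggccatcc
Slc17a1: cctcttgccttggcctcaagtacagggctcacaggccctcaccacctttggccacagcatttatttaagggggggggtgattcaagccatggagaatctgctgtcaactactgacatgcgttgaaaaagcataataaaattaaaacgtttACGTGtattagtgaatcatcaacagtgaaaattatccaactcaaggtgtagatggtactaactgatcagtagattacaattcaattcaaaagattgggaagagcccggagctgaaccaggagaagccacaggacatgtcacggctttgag
Slc17a3: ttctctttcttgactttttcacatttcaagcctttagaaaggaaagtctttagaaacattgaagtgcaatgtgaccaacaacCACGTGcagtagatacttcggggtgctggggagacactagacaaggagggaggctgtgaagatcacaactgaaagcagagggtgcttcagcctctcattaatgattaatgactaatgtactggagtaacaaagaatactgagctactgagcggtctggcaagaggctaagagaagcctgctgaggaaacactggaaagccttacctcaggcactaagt
The hexamer starts at position -25 relative to the gene start in Slc7a7 and at -98 in Slc6a6. ACGTG starts at -100 in Slc17a1, and in Slc17a3 the same 6 letters hold an overlapping match on each strand, in the palindrome CACGTG.

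**Figure D3:**
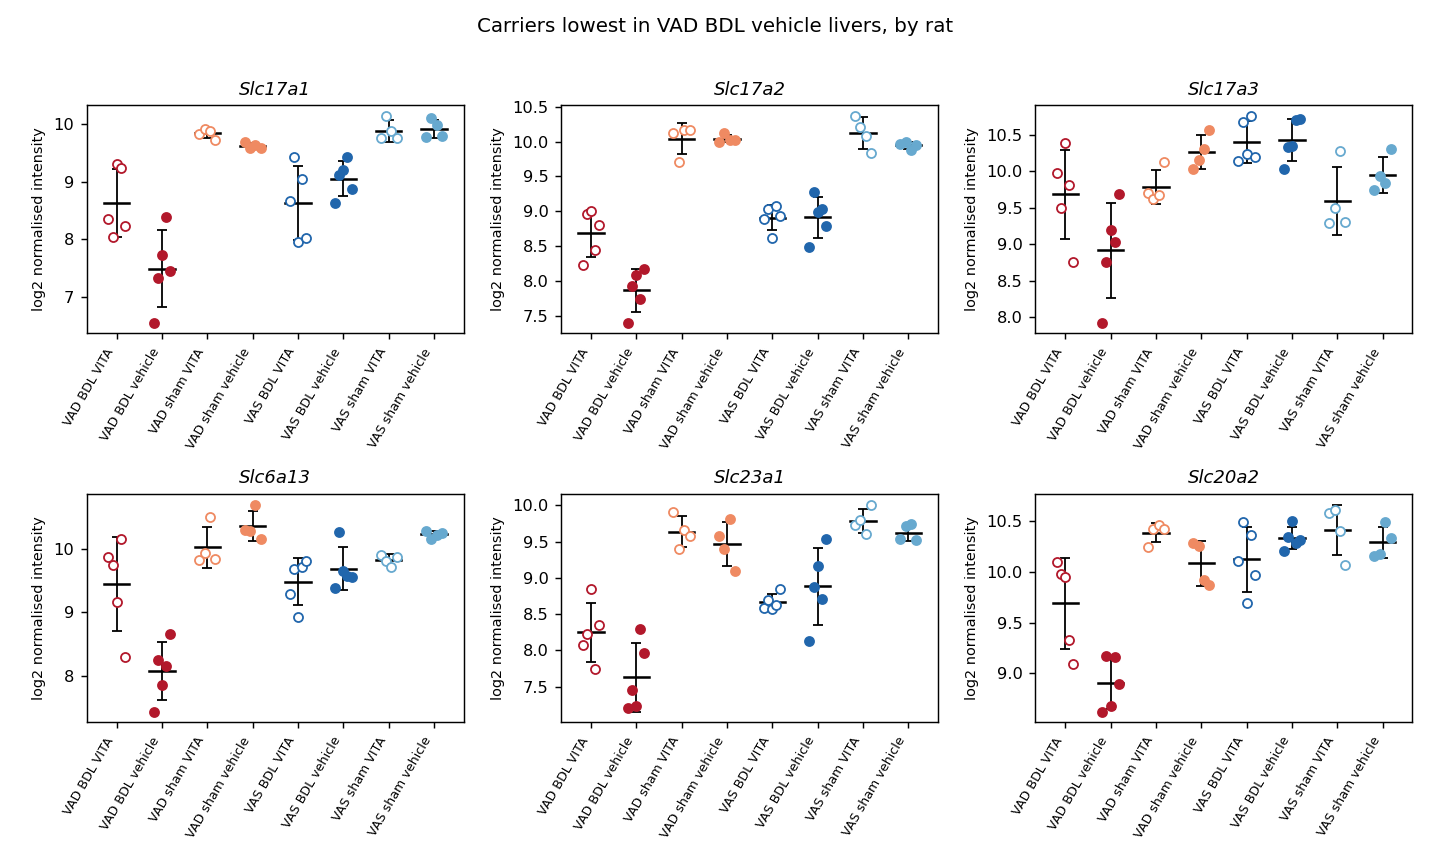
Log2 normalised intensity of 6 carriers in each rat of the 8 groups (points, open for VITA and filled for vehicle), with the group mean (line) and SD (bars). Slc20a2 lay at 8.62 to 9.17 in the VAD BDL vehicle rats and at 10.21 to 10.50 in the VAS BDL vehicle rats.

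Retinyl palmitate given to deficient ligated rats called 28 Slc genes, 15 higher and 13 lower (19.9%), where 17.0% of all genes tested were called, 7.67% higher and 9.32% lower. Without the genes detected in ligated livers alone, 15 were higher and 11 lower. Median scaling gave 17 calls, 5 higher and 12 lower. Within slide 3, 25 of the 28 differed in the same direction, the exceptions being Slc1a2 (0.19 there), Slc6a13 (-0.12) and Slc17a3 (-0.61). That slide held a single VAD BDL VITA rat, replicate 5, so these values describe that rat and cannot separate it from the slide. These rats are compared with the same VAD BDL vehicle rats as above, so opposite signs in the 2 comparisons are partly built in. Slc16a3 had levels of 6.57, 8.09, 6.0, 6.81 and 5.48 in VAD BDL VITA rats, against 9.95, 8.96, 8.29, 9.15 and 9.12 in VAD BDL vehicle rats. The groups were separate and the difference was -2.50 (SE 0.33, adjusted p = 1.2e-06), or 5.67-fold. Slc25a4 had 10.84, 10.10, 10.28, 9.80 and 10.90 in VAD BDL VITA rats, against 11.88, 11.32, 11.47, 11.46 and 11.85 in VAD BDL vehicle rats, again without overlap (difference -1.21, SE 0.23, adjusted p = 2.8e-04). Slc1a3 (-1.84, SE 0.25), Slc1a2 (-1.66, SE 0.33), Slc7a6 (-1.02, SE 0.21), Slc7a7 (-0.90, SE 0.18) and Slc29a3 (-0.97, SE 0.14) fell as well, with adjusted p of at most 7.5e-04.

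For Slc1a2, 4 of the 5 VAD BDL VITA rats had 6.05 to 6.48 and replicate 5 had 8.13, within the range of the VAD BDL vehicle rats. Among the genes that VITA raised, Slc6a13 had levels of 9.87, 9.75, 9.16, 10.15 and 8.29 in VAD BDL VITA rats, against 7.43, 8.25, 7.86, 8.16 and 8.66 in VAD BDL vehicle rats (difference 1.37, SE 0.24, adjusted p = 9.8e-05). The lowest value of the VAD BDL VITA rats was again replicate 5. Slc17a1 (1.14, SE 0.26, adjusted p = 0.0021), Slc17a2 (0.82, SE 0.16, adjusted p = 2.5e-04), Slc20a2 (0.78, SE 0.17, adjusted p = 9.5e-04), Slc38a4 (0.69, SE 0.12, adjusted p = 7.5e-05) and Slc25a10 (0.85, SE 0.18, adjusted p = 8.9e-04) rose. Median scaling lost the calls of Slc25a10 and Slc5a6, and the calls of Slc17a3, Slc23a1 and Slc25a32 were lost under at least 3 other settings each. Slc26a1 (0.11, SE 0.20, adjusted p = 0.78) and Slc6a9, a glycine carrier (-0.15, SE 0.19, adjusted p = 0.68), both lower in VAD than in VAS BDL vehicle livers, were not called with VITA. On the list of partner proteins and related carriers, Slco1b2 was higher with VITA by 1.75 (adjusted p = 1.8e-05) and Emb lower (-1.33, adjusted p = 4.0e-04).

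When both diets received VITA, the ligated deficient and sufficient rats differed in 0 of the 141 genes by limma. Of all genes, 0.0322% were called. At an unadjusted p under 0.05 there were 18 Slc genes (12.8%, against 12.4% of all genes). The authors' table also called 0 Slc genes, and slide as a block called 1. Slc25a4 still had levels of 9.80 to 10.90 in VAD BDL VITA rats against 9.10 to 10.29 in VAS BDL VITA rats (difference 0.89, SE 0.23, adjusted p = 0.15), and Slc16a3 differed by -0.03 (SE 0.33, adjusted p = 0.98).

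In VAD vehicle livers ligation called 69 Slc genes (48.9%), 24 higher and 45 lower, where 40.5% of all genes were called. Without the genes detected in ligated livers alone, 19 were higher and 45 lower. In VAS vehicle livers it called 34 (24.1%), 13 higher and 21 lower, where 17.4% of all genes were called. Lower calls made up 31.9% of the Slc genes and 19.7% of all genes in VAD livers, and 14.9% and 6.87% in VAS livers. The median difference of all genes was -0.04 in the VAD and -0.01 in the VAS comparison, and median scaling put it at 0.23 and 0.15. It turned the split of the Slc genes to 31 higher and 21 lower in VAD and to 15 higher and 8 lower in VAS livers. The balance of higher and lower Slc calls thus depends on the scaling. The shares of all genes called each way under median scaling are not given here. The excess of lower calls over all genes is therefore stated for quantile normalisation alone. With VITA, ligation called 50 genes in VAD livers (21 higher, 29 lower; background 24.3%) and 53 in VAS livers (21 higher, 32 lower; background 25.3%). Those detected in ligated livers alone were 4 of the VAD and 1 of the VAS higher calls. Median scaling gave 22 higher and 16 lower in the VAS VITA livers, leaving out VAS sham VITA replicate 1 gave 34 calls, and leaving out slide 3 gave 28.

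**Figure D4:**
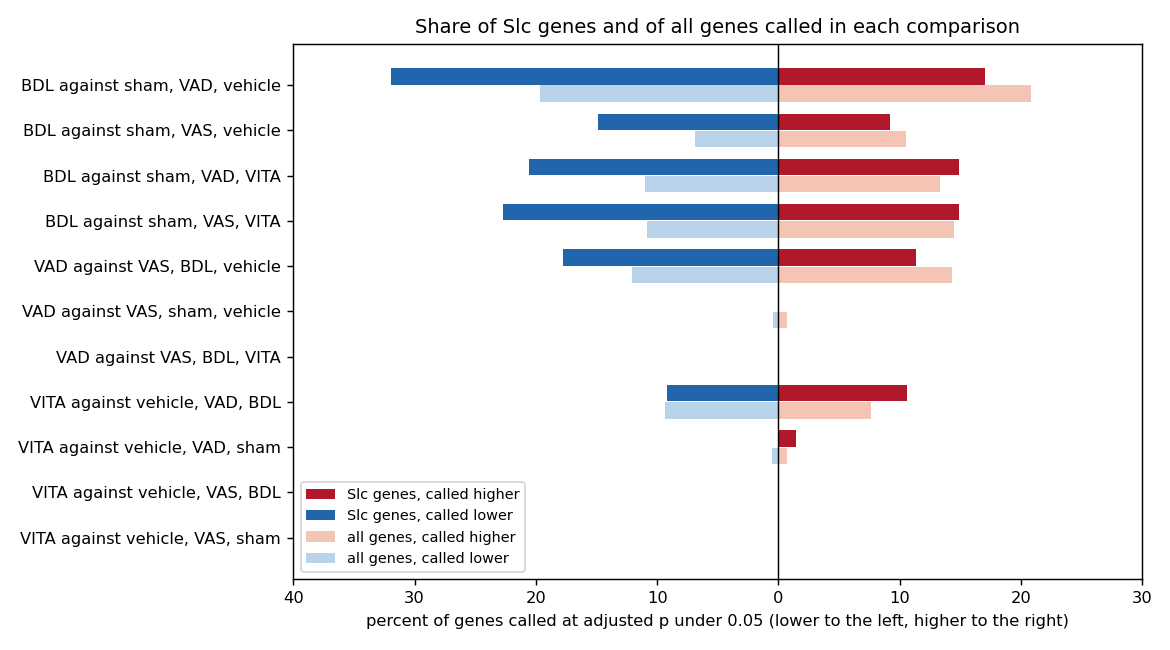
Percent of the 141 Slc genes (dark bars) and of all 9314 genes (pale bars) called higher (right) or lower (left) in each of 11 comparisons at an adjusted p under 0.05. Lower calls reached 31.9% of Slc genes in VAD vehicle livers after ligation, against 19.7% of all genes.

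Several organic ion carriers were lower after ligation. Slc22a8, the organic anion carrier OAT3, showed the largest difference in sufficient rats, with levels of 5.67, 5.25, 5.08, 4.87 and 6.19 in VAS BDL vehicle rats, against 8.55, 8.10, 9.14 and 9.22 in VAS sham vehicle rats (difference -3.34, SE 0.38, adjusted p = 1.3e-07), or 10.2-fold. Of the VAS BDL vehicle rats 2 were above background, and the groups were far apart. In deficient rats it had 5.65, 6.50, 5.77, 6.21 and 6.19 after ligation, against 7.43, 7.52, 7.89 and 8.67 after sham operation (difference -1.81, SE 0.38, adjusted p = 2.7e-04). The ligation effects of the 2 diets differed by 1.53 (SE 0.54, adjusted p = 0.081), which is not past the threshold. Of 12 organic ion, peptide and drug carriers, 3 were called lower in VAS and 5 in VAD vehicle livers. Slc22a7, the organic anion carrier OAT2, was lower in both diets (-0.59 in VAD and -0.52 in VAS vehicle livers), the VAS call being lost when only the groups of the comparison were fitted. Slc15a3, a lysosomal peptide and histidine carrier known from immune cells, was higher by 1.42 in VAD livers (adjusted p = 4.1e-07) and by 0.71 in VAS livers (adjusted p = 0.0086).

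The metal carriers split by direction. Slc11a2, the iron importer DMT1, had levels of 9.74, 9.93, 10.30, 10.19 and 10.70 in VAD BDL vehicle rats, against 8.50, 8.67, 8.88 and 8.65 in VAD sham vehicle rats (difference 1.5, SE 0.27, adjusted p = 3.9e-05). In the sufficient diet it had 10.67, 10.31, 9.55, 9.75 and 10.38 in VAS BDL vehicle rats, against 8.31, 8.64, 8.50 and 8.81 in VAS sham vehicle rats (difference 1.56, SE 0.27, adjusted p = 7.7e-05). No ligated rat of these groups overlapped a sham rat. Slc11a1, the phagosomal metal carrier of macrophages, was higher by 1.24 (SE 0.22, adjusted p = 2.6e-05) in VAD and by 1.02 (SE 0.22, adjusted p = 9.7e-04) in VAS livers. In ligated vehicle livers it differed between VAD and VAS by 0.01 (SE 0.21, adjusted p = 0.97), beside the 7 macrophage markers called there.

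Slc39a4, the zinc importer ZIP4, had 6.54, 7.28, 6.63, 6.33 and 6.79 in VAD BDL vehicle rats, against 8.03, 7.93, 8.47 and 8.42 in VAD sham vehicle rats (difference -1.5, SE 0.27, adjusted p = 3.8e-05). The VAS difference was -1.52 (SE 0.27, adjusted p = 1.1e-04). Slc39a8, the zinc and manganese importer ZIP8, had 2 probes, which were lower after ligation by 1.02 and 1.17 in VAD and by 0.73 and 0.70 in VAS livers. Between VAD and VAS BDL vehicle livers these probes gave -0.31 (adjusted p = 0.11) and -0.55 (adjusted p = 0.0082), so only the second was called. Slc39a14 was called higher in VAS livers after ligation (0.99, SE 0.33, adjusted p = 0.035), a call that 3 other settings lost, and differed by -0.12 in VAD livers (SE 0.33, adjusted p = 0.80).

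Other carriers changed with ligation in both diets. Slc4a4, the sodium bicarbonate carrier NBCe1 of bile duct and other epithelia, was higher by 1.26 (SE 0.23, adjusted p = 3.6e-05) in VAD and by 0.96 (SE 0.23, adjusted p = 0.0026) in VAS livers. Slc28a2, a concentrative purine nucleoside carrier, was higher by 1.27 in VAD (SE 0.18, adjusted p = 5.7e-07) and by 0.72 in VAS livers (SE 0.18, adjusted p = 0.0035). Slc19a2, the thiamine carrier, was lower by 1.24 on the log2 scale in VAD livers (adjusted p = 1.5e-04) and by 1.42 in VAS livers (adjusted p = 9.2e-05). Slc25a30, a mitochondrial carrier, fell by 1.18 in VAD livers (adjusted p = 0.0031) and fell by 1.5 in VAS livers (adjusted p = 8.5e-04). Slc43a3, a purine base carrier, was lower by 1.75 in VAD livers (SE 0.21, adjusted p = 4.4e-08) and by 0.90 in VAS livers (SE 0.21, adjusted p = 0.0025). Slc34a2, the phosphate carrier NaPi-IIb, had 9.51, 10.20, 10.08, 8.88 and 9.50 in VAS BDL vehicle rats, against 7.25, 8.32, 8.81 and 8.09 in VAS sham vehicle rats (difference 1.52, SE 0.49, adjusted p = 0.028). That call was lost without slide 3, without a detection filter and on leaving out any of 4 rats, and in VAD livers the difference was 0.80 (SE 0.49, adjusted p = 0.20).

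**Figure D5:**
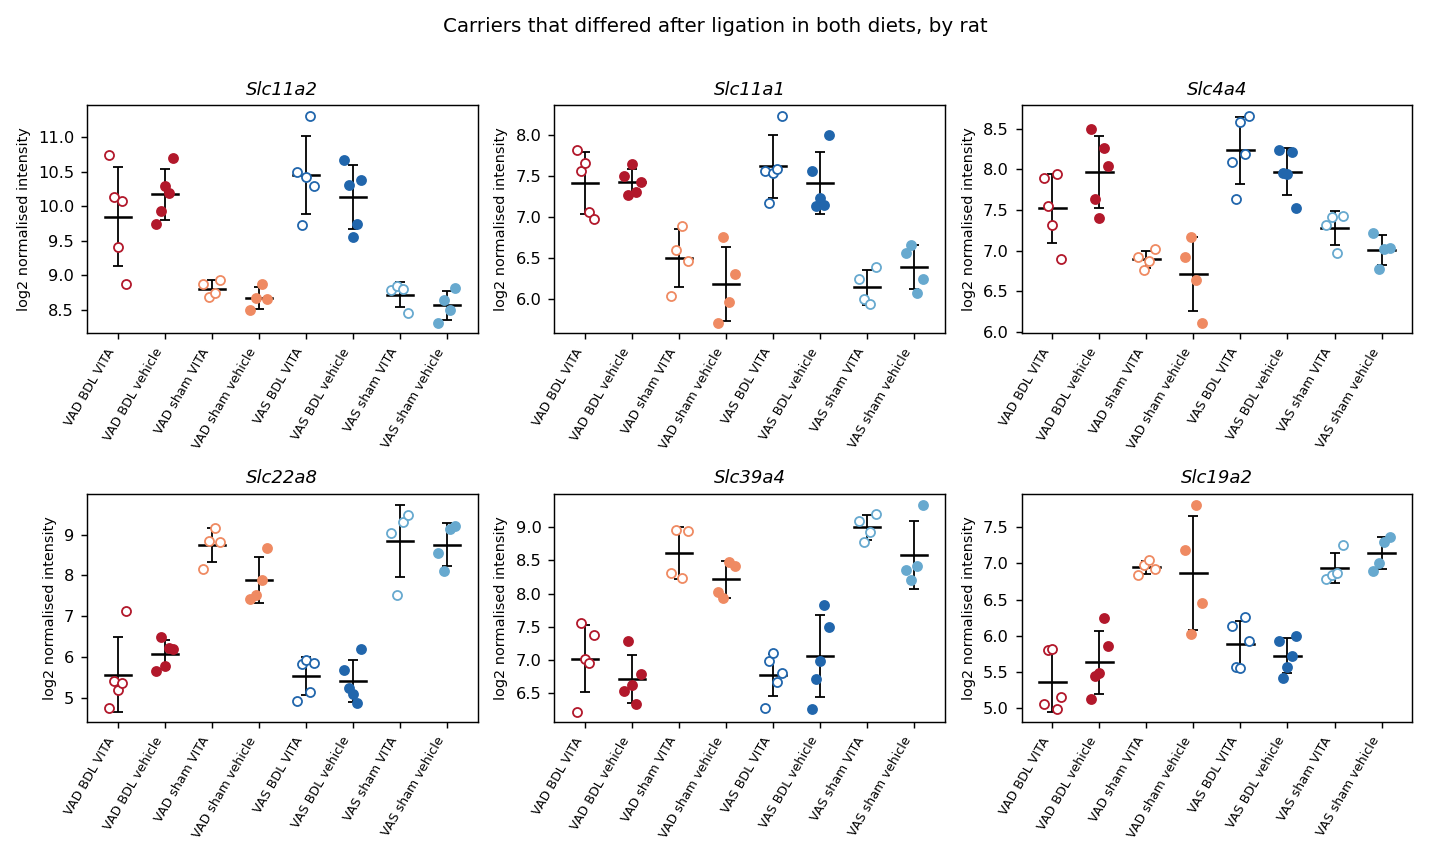
Log2 normalised intensity of 6 carriers in each rat of the 8 groups (points, open for VITA and filled for vehicle), with the group mean (line) and SD (bars). Slc11a2 lay at 9.55 to 10.70 in the 10 BDL vehicle rats and at 8.31 to 8.88 in the 8 sham vehicle rats.

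Tests of the difference between the 2 ligation effects (VAD minus VAS, vehicle) called 16 Slc genes, 6 higher and 10 lower, where 7.92% of all genes were called, 4.25% higher and 3.67% lower. Slc1a5, detected in ligated livers alone, was 1 of the 6. Median scaling gave 9 higher and 4 lower, and the authors' values gave 8 higher and 8 lower. Slc16a3 (2.78, SE 0.50, adjusted p = 3.6e-04), Slc25a4 (2.09, SE 0.35, adjusted p = 1.8e-04) and Slc1a3 (1.5, SE 0.37, adjusted p = 0.0082) led the positive side, meaning a larger rise with ligation in VAD livers, and fitting only these groups lost the call of Slc1a3. Ligation in VAD livers gave 3.59 (SE 0.35) for Slc16a3 and 3.16 (SE 0.25) for Slc25a4, and in VAS livers Slc25a4 gave 1.06 (SE 0.25, adjusted p = 0.0023). Slc16a3 was not called there (adjusted p = 0.11); as all 4 VAS sham vehicle rats were below background for Slc16a3 and Slc1a3, their differences of effects are fitted values and not exact sizes. Slc17a3 (-1.82, SE 0.39, adjusted p = 0.0023) and Slc6a13 (-1.75, SE 0.37, adjusted p = 0.0021) led the negative side. Slc17a3 was lower after ligation in VAD livers (-1.35, SE 0.27, adjusted p = 1.4e-04) and differed by 0.47 in VAS livers (SE 0.27, adjusted p = 0.27). The Slc17a1 difference of effects (-1.27, adjusted p = 0.042) was lost under median scaling, in the authors' table and without a filter. The metal carriers Slc11a1, Slc11a2 and Slc39a4, with differences of effects of 0.22 (SE 0.31), -0.07 (SE 0.39) and 0.02 (SE 0.39), were not called.

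The effect of VITA differed between deficient and sufficient ligated rats for 19 Slc genes, 9 higher and 10 lower, where 13.4% of all genes were called, 5.74% higher and 7.68% lower. Slc1a5 and Slc43a2, detected in ligated livers alone, were 2 of the 10. Median scaling gave 6 higher and 14 lower. Slc16a3 gave -3.36 (SE 0.47, adjusted p = 8.3e-06), with a VITA difference of -2.50 in VAD BDL and of 0.86 (SE 0.33, adjusted p = 0.87) in VAS BDL livers. Slc1a3 (-2.03, SE 0.35, adjusted p = 1.3e-04) was next by size and Slc7a7 (-1.41, SE 0.25, adjusted p = 2.2e-04) was also called, and Slc6a13 (1.58, SE 0.35, adjusted p = 0.0018) and Slc17a1 (1.56, SE 0.37, adjusted p = 0.0040) led the other side. In sufficient rats VITA called 0 Slc genes by limma in either operation. Of all genes, 0.0% were called in BDL and 0.0215% in sham livers. At an unadjusted p under 0.05 there were 9 Slc genes in BDL livers (6.38%, against 5.07% of all genes). In sham livers there were 5 (3.55%, against 3.73% of all genes). The authors' table also called 0 Slc genes in both.

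In sham-operated rats on vehicle, deficiency called 0 of the 141 Slc genes by limma, where 1.11% of all genes were called. At an unadjusted p under 0.05 there were 17 Slc genes (12.1%, against 11.2% of all genes), and the authors' table called 1. Slc1a2 had levels of 5.85, 7.50, 7.47 and 7.08 in VAD sham vehicle rats, against 5.94, 5.49, 6.16 and 5.54 in VAS sham vehicle rats (difference 1.19, SE 0.37, adjusted p = 0.12), and 1 deficient rat lay among the sufficient ones.

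VITA in deficient sham rats called 2 Slc genes, both higher, where 1.3% of all genes were called, 0.741% higher and 0.558% lower. Slc2a5, the fructose carrier GLUT5, had levels of 10.43, 10.67, 10.17 and 10.57 in VAD sham VITA rats, against 8.55, 8.41, 8.45 and 8.40 in VAD sham vehicle rats (difference 2.01, SE 0.43, adjusted p = 0.012). The groups were separate, and the difference was 1.95 within slide 1 and 2.14 within slide 3, but without slide 3 the gene was no longer called. Each of these 2 slides held a single VAD sham VITA rat. The second gene was Slc25a10 (0.81, SE 0.20, adjusted p = 0.035), whose call was lost on leaving out any of 6 rats. Slc2a5 was lower after ligation in both VITA groups, by 2.77 on the log2 scale in VAD (SE 0.41, adjusted p = 5.2e-06) and by 2.60 in VAS livers (SE 0.41, adjusted p = 1.3e-05). On vehicle the ligation difference was -0.88 in VAD (SE 0.41, adjusted p = 0.089) and -1.26 in VAS livers (SE 0.41, adjusted p = 0.031), the VAS call being lost under 3 other settings.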

How the data were processed

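Livers of 36 rats were measured on Illumina RatRef expression arrays, 12 arrays on each of 3 slides. Per the file headers, the deposited file gives for each probe an intensity that was not normalized and a detection p-value, and the authors' value table gives processed intensities, whose scaling is not stated; each of its columns has a median of 212. Groups came from the labels. Nothing in the labels pairs the rats.

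Intensities were corrected with limma 3.58.1 (neqc, offset 16, negative controls inferred from the detection p-values), quantile normalised and put on the log2 scale. Probes detected at p under 0.01 on at least 4 arrays were kept, with the probe of highest mean per gene, giving 9314 genes. Names follow RefSeq: 138 of the 142 Slc probes matched a current symbol, 3 a synonym, and 1 kept its file name. A model of 8 group means was fitted to all genes with limma, and p-values were adjusted by Benjamini-Hochberg over all genes. Where a group was below background on every array, its fold is a lower bound against the lowest detected signal. The fit was tested on simulated data.

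The genes named were, per comparison, the called genes with the largest change in each direction, and a panel. The members, panel and lists were chosen with earlier results of these data known; Slc38a3, Slc17a5 and Slc39a8 were named after their values were seen. Alternatives were another offset, median scaling, the authors' table, other detection filters, every probe, slide or replicate number as a block, only the groups compared, and slide 3 or single rats left out. R 4.3.3 and Python 3.11.15 were used. Some genes are not reported here.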

Additional observations from a re-analysis of the deposited data

Results flagged for a closer look

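Slc1a2, a glutamate carrier, had a log2 level of 8.13 in VAD BDL VITA replicate 5, far from the other 4 rats of that group, which had 6.05 to 6.48. This was 1 of 101 groups of values checked, and chance alone marks about 1 group in 20.

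The effect of ligation differed between VAD and VAS vehicle livers, by the test of the difference itself, for 16 Slc genes (11.3%), where 7.92% of all genes were called. The log2 differences of effects (VAD minus VAS) were positive for Slc16a3 (2.78), Slc1a3 (1.5), Slc1a5 (1.48), Slc25a4 (2.09), Slc29a3 (0.71) and Slc7a6 (1.01). They were negative for Slc17a1 (-1.27), Slc17a2 (-1.15), Slc17a3 (-1.82), Slc20a2 (-1.22), Slc23a1 (-1.10), Slc25a16 (-0.80), Slc35c2 (-1.15), Slc38a4 (-0.69), Slc5a6 (-0.94) and Slc6a13 (-1.75). Leaving out 1 rat took the highest adjusted p to 0.115 for Slc25a16, 0.106 for Slc7a6, 0.103 for Slc17a1, 0.0786 for Slc29a3, 0.07 for Slc35c2 and 0.0651 for Slc23a1 (limma), so these calls can be lost. Of these 16, only Slc16a3, Slc25a4, Slc1a3, Slc1a5, Slc17a1, Slc17a3, Slc20a2 and Slc6a13 were followed gene by gene under the other settings. Among them, the calls of Slc17a1 and Slc1a3 were also lost. Median scaling gave fewer lower calls in all than the fit used here, so calls of some other genes were lost there too. Slc1a5 was below background in VAD sham, VAS sham and VAS BDL vehicle livers, Slc7a6 in both sham vehicle groups, and Slc16a3 and Slc1a3 in VAS sham vehicle livers, so their values are fitted and not exact sizes.

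The effect of VITA differed between VAD and VAS ligated livers for 19 Slc genes (13.5%), where 13.4% of all genes were called, a share close to that of the Slc genes. The log2 differences of effects (VAD minus VAS) were positive for Slc17a1 (1.56), Slc17a2 (0.82), Slc20a2 (0.99), Slc25a10 (1.13), Slc35d1 (1.15), Slc38a3 (1.05), Slc38a4 (0.80), Slc5a6 (0.96) and Slc6a13 (1.58). They were negative for Slc15a3 (-1.17), Slc16a3 (-3.36), Slc1a2 (-1.90), Slc1a3 (-2.03), Slc1a5 (-1.21), Slc25a4 (-1.72), Slc29a3 (-1.0), Slc43a2 (-0.97), Slc7a6 (-1.43) and Slc7a7 (-1.41). Of these 19, only Slc6a13, Slc17a1, Slc35d1, Slc25a10, Slc16a3, Slc1a3, Slc1a2 and Slc25a4 were followed gene by gene under the other settings. Among them, the call of Slc35d1 was lost without slide 3 and that of Slc25a10 under median scaling. Median scaling gave fewer higher calls in all than the fit used here, so calls of some other genes were lost there too. Slc43a2 was below background in VAD BDL VITA and VAS BDL vehicle livers, Slc1a5 in VAS BDL vehicle livers and Slc35d1 in VAD BDL vehicle livers, so their values are fitted and not exact sizes.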

How the results depend on the processing

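Of 142 called values of named genes, 99 stayed called under every setting that gave a value and 43 were lost under at least 1 (12 of the 99 had no value under the filter of 18 arrays, which dropped their genes); none of the values called turned its sign. Of the 142 called among 265 named values, median scaling lost the call of 28, leaving out slide 3 that of 18 and using no detection filter that of 17. Sizes depend on the scale: of the same 142 called values, 65 moved by over 1.5 times in the authors' table and 17 with the larger offset. Median scaling gave 17 calls for VITA in VAD BDL livers. For VITA in VAD sham livers, the larger offset and slide as a block each gave 4 calls, no filter and a fit to only these groups each gave 1, and leaving out slide 3 gave 0. Without slide 3, ligation in VAS VITA livers gave 28 calls. The authors' table gave 1 call for VAD against VAS sham livers, and slide as a block gave 1 for VAD against VAS BDL livers on VITA. The causes were not tested. Counting without the genes detected in ligated livers alone, chosen after seeing the data, moved no count of calls by over 1.5 times. Leaving out 1 rat at a time gave 36 to 43 calls for VAD against VAS BDL vehicle livers, 0 to 1 for VAD against VAS sham livers and 0 to 1 for VAD against VAS BDL VITA livers. It gave 22 to 27 for VITA in VAD BDL, 1 to 3 in VAD sham and 0 in both VAS comparisons. For ligation it gave 63 to 70 in VAD vehicle, 24 to 32 in VAS vehicle, 43 to 56 in VAD VITA and 34 to 48 in VAS VITA livers. The tests of a difference of effects gave 11 to 18 for ligation and 19 to 24 for VITA. The replicate numbers did not pair the rats (correlations of same-numbered rats from -0.188 to 0.205, with every pair above 0.1 in 0 of 11 comparisons); with them as a block, the comparison of VAD with VAS BDL vehicle livers gave 43 calls and ligation in VAS vehicle livers gave 41. Slc genes near background, such as the 22 probes detected on fewer than 9 arrays, have little signal to compare.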
